A study of Mus musculus with 24 samples.

Results

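Peroxisomes are small organelles that shorten and rework fatty acids that mitochondria handle poorly, and 34 genes of their assembly and fat oxidation were followed here in RNA sequencing of mouse liver. The 34 genes were chosen by name: they encode enzymes of peroxisomal fatty acid oxidation, transporters and channels of the peroxisomal membrane, peroxins (the PEX proteins that build the organelle), catalase and malonyl-CoA decarboxylase. All 34 were found among the 41388 genes of the deposited tables, and all 34 had enough reads to enter the tests, which covered 16757 genes.

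The libraries fell into 4 groups of liver: mice with a liver knockout of Gpt2 that were fasted for 18 h (KO fasted, 6 libraries), floxed control mice fasted for 18 h (control fasted, 5 libraries), knockout mice with free access to food (KO fed, 6 libraries) and floxed control mice with free access to food (control fed, 5 libraries). Gpt2 encodes alanine transaminase 2, a mitochondrial enzyme that converts alanine and pyruvate into each other. The controls carry the floxed allele without its deletion, and the Cre driver, strain and age are not stated by the labels or the design text. The labels do not say that the libraries of a group came from separate animals, so p-values measure the spread between libraries.

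The oxidation pathway in peroxisomes removes acetyl units from very long chain, branched and dicarboxylic fatty acids. An acyl-CoA oxidase opens the cycle and makes hydrogen peroxide, which catalase destroys; a bifunctional enzyme and a thiolase complete it. In rodent liver many of these genes are targets of PPARA, a nuclear receptor that fatty acids activate during fasting and that binds DNA together with RXR at pairs of AGGTCA-like repeats. Peroxins fall into those that place proteins in the membrane, those that import enzymes into the matrix, and those that divide the organelle.

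Total reads assigned to genes lay between 18.4 and 55.3 M per library, M being 1000000, with a median of 37.6 M. Of 24 libraries in the labels, 22 were used. The file of control fed replicate 6 was incomplete and was left out. The library labelled control fasted replicate 4 was also left out: it held 75.7 CPM (counts per 1000000 assigned reads, scaled by TMM factors) of Alb, the hepatocyte albumin gene, against 45400 to 120000 CPM in the 22 others, and 4350 CPM of Kap, a kidney gene, against at most 9.21 CPM. The hepatocyte markers summed to between 82800 and 186000 CPM in every one of the 22 libraries, and the kidney markers to between 0.819 and 28.6 CPM. Gpt2 itself, checked first, had 148, 114, 138, 86.2, 52.1 and 131 CPM in KO fasted livers, against 698, 795, 727, 707 and 557 CPM in control fasted livers. In fed livers Gpt2 averaged 60.5 ± 11.3 CPM in knockouts (SD, n = 6) and 370 ± 51.9 CPM in controls (SD, n = 5). The ranges did not overlap in either state, and the exact two-sided permutation test gave p = 0.00216 in each, the smallest that 462 arrangements allow. Reads of exons outside a deleted part would still count towards the gene. The source of the Gpt2 reads that remained in knockout livers was not tested.

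In both genotypes, fasted livers held more mRNA of the bifunctional enzymes Ehhadh and Hsd17b4, the thiolases Acaa1a and Acaa1b, the auxiliary enzymes Ech1 and Decr2, the transporter Abcd3 and the peroxins Pex11a, Pex16 and Pex19, and less of the reductase Pecr and the carrier Slc25a17. No peroxin of matrix import passed the test. In knockout livers, fasted against fed, 11 of the 34 genes were higher and 2 were lower at a Benjamini-Hochberg adjusted p under 0.05 (edgeR quasi-likelihood test), 38.2% in all. Over all genes tested 6.14% were called in this comparison, 2.88% higher and 3.26% lower. In control livers, fasted against fed, 13 were higher and 3 were lower, 47.1% in all, where 8.12% of all genes were called, 3.99% higher and 4.13% lower. The median log2 fold change was 0.19 for the 34 genes and 0.01 for all genes in knockout livers, and 0.14 and 0.00 in control livers. With the kidney-like library put back among the fasted controls, 6 of the 34 genes were called higher and 1 lower in each genotype. The knockout libraries were the same in that fit, which estimates the spread over all 4 groups together.

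The ranges of the individual libraries, taken from the same counts, matched these calls only in part. In knockout livers all fasted libraries lay above all fed ones for 7 of the genes and below them for 2; of all genes tested, 3.97% were apart in this way. In control livers they lay above for 12 genes and below for 4, where 7.91% of all genes were apart. Acaa1a, Acaa1b, Decr2 and Pex16 were called in knockout livers although their ranges overlapped. Among controls Abcd2 was called with overlapping ranges, and Pex10 was apart without being called. Of the 8 cycle enzymes, 4 were called higher and 0 lower in knockout livers, and 4 higher and 1 lower in control livers. Of the 6 transporters, carriers and channels, 1 was higher and 1 lower in knockout livers, and 3 were higher and 1 lower in control livers. Differences between roles were not tested.

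**Figure D1:**
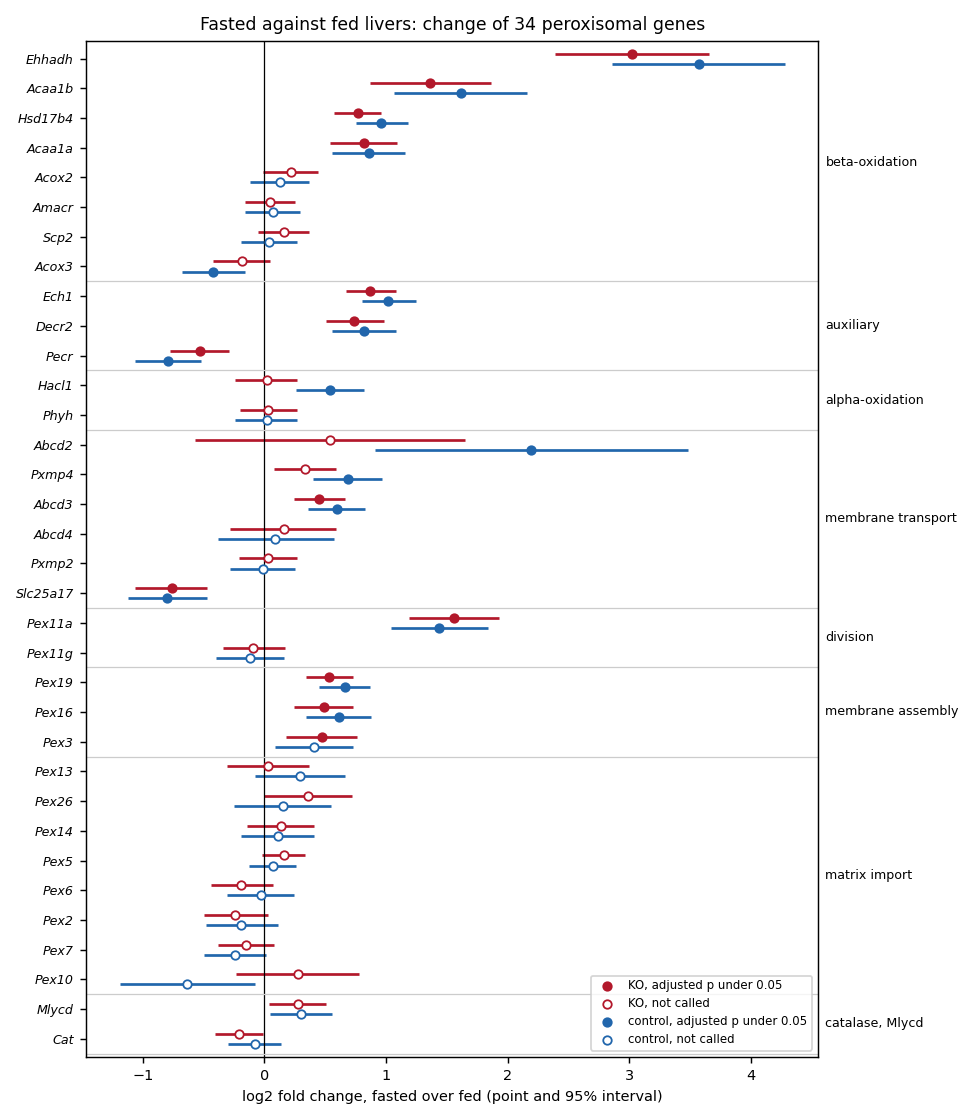
The log2 fold change of fasted over fed livers (horizontal axis) is plotted for each of the 34 genes, grouped by role, with 95% intervals; knockout livers are in red and control livers in blue, and filled points passed an adjusted p of 0.05. Ehhadh stands farthest to the right in both genotypes, at 3.02 in knockout and 3.57 in control livers, and the 8 matrix import peroxins are all open points.

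The enzyme with the largest rise was Ehhadh, the L-bifunctional enzyme that carries out the hydratase and dehydrogenase steps of the cycle (GRCm38 chromosome 16, 21761287 to 21787844, minus strand). It had 828, 1840, 1230, 798, 1270 and 2710 CPM in KO fasted livers and 145, 187, 185, 162, 223 and 165 CPM in KO fed livers. In controls it had 1480, 2450, 1360, 3270 and 1150 CPM in fasted livers and 170, 181, 151, 159 and 158 CPM in fed livers. Every fasted library exceeded every fed library several times over, and fasted libraries also spread far more widely than fed ones. The log2 fold change was 3.02 ± 0.30 in knockout livers (SE, adjusted p = 1.5e-06) and 3.57 ± 0.34 in control livers (SE, adjusted p = 7.9e-07) (both edgeR quasi-likelihood, Benjamini-Hochberg). Measured per kilobase of gene length (RPKM), Ehhadh was the fifth most abundant of the 34 genes in control fasted livers at 644 ± 297 RPKM (SD, n = 5) and the eleventh in control fed livers at 54.3 ± 3.89 RPKM (SD, n = 5).

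Hsd17b4 encodes the D-bifunctional protein, which performs the same reactions on straight and branched chains through intermediates of the opposite configuration. It had 568, 577, 568, 538, 630 and 694 CPM in KO fasted livers, against 364, 403, 343, 351, 339 and 303 CPM in KO fed livers. Control fasted livers held 643, 698, 611, 764 and 600 CPM, against 341, 376, 348, 324 and 312 CPM in control fed livers. Fasted and fed libraries were fully apart in both genotypes, with little spread within a group. The log2 fold changes were 0.77 ± 0.10 in knockout and 0.96 ± 0.11 in control livers, both called.

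The thiolases Acaa1a and Acaa1b catalyse the last step, which releases acetyl-CoA, and both rose. Acaa1b (chromosome 9, 119148023 to 119157093, minus strand) had 1060, 1300, 1600, 607, 1270 and 2060 CPM in KO fasted livers, against 521, 721, 428, 455, 397 and 553 CPM in KO fed livers. In controls it had 1580, 1510, 1440, 2240 and 1560 CPM in fasted livers, against 630, 705, 564, 317 and 500 CPM in fed livers. Control libraries were fully apart; among knockouts the lowest fasted library, replicate 4, lay below the highest fed library, replicate 2. Acaa1a (chromosome 9, 119339676 to 119350299, plus strand) had 323, 244, 409, 182, 297 and 405 CPM in KO fasted livers, against 200, 200, 160, 160, 149 and 186 CPM in KO fed livers. It had 363, 385, 353, 402 and 354 CPM in control fasted livers, against 228, 227, 191, 190 and 185 CPM in control fed livers. Here too KO fasted replicate 4 was the library that overlapped with fed knockouts. The log2 fold changes of Acaa1b were 1.36 ± 0.24 in knockout and 1.62 ± 0.26 in control livers, and those of Acaa1a were 0.82 ± 0.14 in knockout and 0.86 ± 0.15 in control livers, all called.

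The thiolase genes lie near each other and are close copies, so the split of reads between them is uncertain. Their coding sequences in the GENCODE M21 transcripts of GRCm38 have 1272 bases each and are 96.5% identical, with 44 differing bases and an identical run of up to 327 bases. Of all 50-base words in its transcripts, Acaa1b shared 30.5% with Acaa1a. The stretch with the densest differences, coding bases 460 to 549, is shown because reads can be assigned to either gene from such places; capitals mark the 13 bases that differ.
Acaa1a: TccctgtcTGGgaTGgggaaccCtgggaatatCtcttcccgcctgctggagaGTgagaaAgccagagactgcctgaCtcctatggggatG
Acaa1b: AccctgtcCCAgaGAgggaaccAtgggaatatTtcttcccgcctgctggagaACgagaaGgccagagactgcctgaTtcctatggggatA

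Per kilobase, Acaa1b exceeded Acaa1a 9.46 ± 1.95 times in KO fasted livers (SD, n = 6), 10 ± 1.46 times in control fasted livers (SD, n = 5), 6.5 ± 0.835 times in KO fed livers (SD, n = 6) and 5.94 ± 1.27 times in control fed livers (SD, n = 5). The levels of Acaa1b thus stood further above those of Acaa1a in fasted than in fed livers of either genotype; the difference in the ratio was not tested.

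The remaining cycle enzymes did not rise. Acox2, the oxidase of branched chains and bile acid intermediates, Amacr, the racemase that turns branched acyl-CoAs into the form the oxidase accepts, and Scp2, whose protein holds a thiolase for branched chains, were not called. Their log2 fold changes were 0.22 ± 0.11, 0.05 ± 0.10 and 0.16 ± 0.10 in knockout livers and 0.13 ± 0.12, 0.07 ± 0.11 and 0.04 ± 0.11 in control livers. Scp2 shares 29.7% of its 50-base words with the pseudogene Scp2-ps2. Acox3, the pristanoyl-CoA oxidase (chromosome 5, 35583040 to 35613801, plus strand), fell in control livers and was not called in knockout livers. It had 23, 24.5, 24.1, 19.3 and 28.2 CPM in control fasted livers, against 30.4, 36.2, 29.9, 29.8 and 33 CPM in control fed livers. The control ranges were apart by a small margin, and the log2 fold change was -0.42 ± 0.13 (edgeR quasi-likelihood, Benjamini-Hochberg adjusted p = 0.033). KO fasted livers had 20 to 27.3 CPM (median 23.8) and KO fed livers 24.1 to 29.4 CPM (median 27.2), with a log2 fold change of -0.18 ± 0.12. The Acox3 call in controls was lost when any of 6 libraries was left out: the adjusted p of edgeR's quasi-likelihood test (Benjamini-Hochberg) was 0.0962 and 0.0711 without control fed replicates 2 and 5, and 0.0763, 0.0533, 0.0615 and 0.118 without control fasted replicates 1, 2, 3 and 5.

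Unsaturated fatty acids need auxiliary enzymes that move or reduce their unsaturated bonds before the cycle can proceed. Ech1, a dienoyl-CoA isomerase, had 428, 398, 348, 399, 335 and 411 CPM in KO fasted livers and 222, 224, 227, 198, 194 and 201 CPM in KO fed livers. It had 446, 411, 356, 455 and 425 CPM in control fasted livers and 207, 258, 204, 189 and 172 CPM in control fed livers. Fasted and fed libraries were apart in both genotypes, and the log2 fold changes of 0.87 ± 0.10 in knockout and 1.02 ± 0.11 in control livers were called. Decr2, the peroxisomal dienoyl-CoA reductase, also rose, by 0.74 ± 0.12 in knockout and 0.82 ± 0.13 in control livers on the log2 scale. Its level was 199 ± 32.9 CPM in KO fasted livers and 220 ± 4.68 CPM in control fasted livers, against 119 ± 20.4 CPM in KO fed livers and 125 ± 16.0 CPM in control fed livers (SD, n = 6 for KO and 5 for control groups).

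Pecr, a reductase of trans-enoyl-CoAs (chromosome 1, 72259167 to 72284314, minus strand), moved the other way. It had 110, 82.3, 140, 85.6, 134 and 94.4 CPM in KO fasted livers, against 151, 147, 146, 154, 174 and 163 CPM in KO fed livers. Control fasted livers had 86.4, 93.7, 116, 90 and 121 CPM, against 160, 161, 184, 176 and 197 CPM in control fed livers. All fasted libraries lay below all fed libraries of their genotype, and the log2 fold changes were -0.53 ± 0.12 in knockout and -0.79 ± 0.13 in control livers. Exons of the antisense gene D230017M19Rik overlap 11.5% of the Pecr exons, and reads of the pair cannot be told apart because no label or header states whether counting used strand. The same holds for 9 other genes of the 34, with 28.3% of the Pex14 exons under Gm17029, 11.4% of those of Acaa1b under Dlec1, 10.8% of those of Pxmp2 under Gm15788 and smaller shares elsewhere.

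Alpha-oxidation removes a single carbon from phytanic acid and other chains that beta-oxidation cannot start on. Phyh, the hydroxylase of its opening step, was among the genes nearest to no change. It had 1460, 1660, 1740, 1130, 1290 and 1430 CPM in KO fasted livers and 1430, 1280, 1280, 1440, 1740 and 1350 CPM in KO fed livers. Control fasted livers had 1640, 1610, 1470, 1250 and 1500 CPM and control fed livers 1520, 1510, 1320, 1810 and 1220 CPM. The ranges of all 4 groups overlapped, with log2 fold changes of 0.03 ± 0.11 in knockout and 0.02 ± 0.13 in control livers.

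Hacl1, the lyase that cleaves the hydroxylated chain, rose in control livers and was not called in knockout livers. It had 219, 349, 293, 312, 342 and 289 CPM in KO fasted livers, against 292, 309, 277, 224, 403 and 279 CPM in KO fed livers. Control fasted livers had 378, 358, 333, 321 and 342 CPM, against 308, 194, 213, 254 and 224 CPM in control fed livers. Control libraries were apart, while those of knockouts covered the same range fed and fasted. The log2 fold change was 0.02 ± 0.12 in knockout and 0.54 ± 0.14 in control livers (adjusted p = 0.0093 in controls, edgeR quasi-likelihood with Benjamini-Hochberg adjustment). The difference between these responses did not pass: the interaction was -0.52 ± 0.19 on the log2 scale, with an unadjusted p of 0.0083 and a Benjamini-Hochberg adjusted p of 0.997 in the same edgeR fit. Hacl1 shares 28.4% of its 50-base words with other annotated genes, most of them with Gm49387, which the tables do not list.

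Fatty acids enter peroxisomes as CoA esters through ABC transporters. Abcd3, the most abundant of these per kilobase, takes up branched, dicarboxylic and long chains. It rose to 577 ± 42.2 CPM in KO fasted livers, against 422 ± 38.4 CPM in KO fed livers (SD, n = 6 each), a log2 fold change of 0.45 ± 0.11. In controls it was 591 ± 121 CPM in fasted and 391 ± 26.6 CPM in fed livers (SD, n = 5 each), a log2 fold change of 0.60 ± 0.12. Abcd4, a relative that serves cobalamin export from lysosomes, was not called, at 0.16 ± 0.21 in knockout and 0.09 ± 0.23 in control livers.

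Abcd2, a transporter of very long and unsaturated chains (chromosome 15, 91145884 to 91191807, minus strand), was the least abundant of the 34 genes per kilobase in control fed livers and the most variable. It had 19.8, 46.1, 19.2, 29.1, 17.9 and 12.9 CPM in KO fasted livers and 14.3, 9.11, 34.8, 5.89, 26.1 and 9.65 CPM in KO fed livers. Fasted control livers had 44.9, 20.3, 7.46, 18.4 and 17.7 CPM and control fed livers 2.57, 8.01, 1.29, 9.49 and 2.59 CPM. Fed controls were low as a group, while the other 3 groups overlapped broadly, and control fasted replicate 3 lay within the fed control range. The log2 fold change was 0.54 ± 0.53 in knockout livers, not called, and 2.19 ± 0.61 in control livers (edgeR quasi-likelihood, Benjamini-Hochberg adjusted p = 0.031). That call was lost without control fed replicates 1, 3 or 5, at adjusted p values of 0.0811, 0.0758 and 0.0769 in the same edgeR test, and without control fasted replicate 1, at 0.0972.

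Among the other membrane proteins, Slc25a17, the carrier that brings CoA and nucleotide cofactors into the organelle (chromosome 15, 81318921 to 81360765, minus strand), fell. It had 17.4, 23.1, 17.2, 17, 20.8 and 20.9 CPM in KO fasted livers, against 25.3, 38.6, 26.5, 42.8, 36.9 and 27.4 CPM in KO fed livers. In controls, fasted livers had 15.3, 22.5, 26, 19.9 and 24.6 CPM, against 31, 34.8, 45.8, 38.3 and 38 CPM in control fed livers. Fasted and fed libraries were apart in both genotypes, and the log2 fold changes were -0.76 ± 0.15 in knockout and -0.80 ± 0.16 in control livers, both called. Pxmp4, a membrane protein, rose in control livers by 0.69 ± 0.14 and had a log2 fold change of 0.33 ± 0.13 in knockout livers, which did not pass. Without KO fasted replicate 3 that knockout value was 0.42 ± 0.12 and passed, at an adjusted p of 0.0408 (edgeR quasi-likelihood, Benjamini-Hochberg).

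Pxmp2, a channel of the peroxisomal membrane for small solutes, lay nearest to no change in control livers. It had 81.5, 54.5, 64.6, 68.6, 47.2 and 54 CPM in KO fasted livers and 60.1, 47.4, 64.2, 57.9, 67.8 and 66.1 CPM in KO fed livers. Control fasted livers held 61, 67.5, 54.1, 46.8 and 59.3 CPM and control fed livers 65.7, 57.2, 55.4, 54.8 and 58 CPM. All 4 groups overlapped, with log2 fold changes of 0.03 ± 0.12 in knockout and -0.01 ± 0.13 in control livers.

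Of the 2 peroxins of division, 1 rose in each genotype. Pex11a, which elongates and divides peroxisomes (chromosome 7, 79735957 to 79743131, minus strand), had 103, 94.3, 113, 129, 98.4 and 126 CPM in KO fasted livers and 31.6, 59.4, 35.5, 35.9, 33 and 29 CPM in KO fed livers. Fasted controls had 86.6, 107, 119, 146 and 92.9 CPM and control fed livers 31.1, 62.5, 44, 31.1 and 34.8 CPM. The fasted libraries lay above all fed libraries in both genotypes, and 1 fed library of each genotype, replicate 2, stood above the rest of its group. The log2 fold changes were 1.56 ± 0.18 in knockout and 1.44 ± 0.20 in control livers. Pex11g, its relative, was not called, at -0.09 ± 0.13 in knockout and -0.12 ± 0.14 in control livers.

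Of the 3 peroxins that insert membrane proteins, 3 rose with fasting in knockout and 2 in control livers. Pex19, the soluble chaperone of new membrane proteins, averaged 127 ± 13.3 CPM in KO fasted and 134 ± 6.97 CPM in control fasted livers, against 87.8 ± 9.8 CPM in KO fed and 84.8 ± 5.32 CPM in control fed livers (SD, n = 6 for KO and 5 for control groups). Its log2 fold change was 0.53 ± 0.10 in knockout and 0.66 ± 0.11 in control livers, and Pex16, which recruits membrane proteins, rose by 0.49 ± 0.12 in knockout and 0.61 ± 0.13 in control livers. Pex3, the membrane receptor for Pex19, had 17.7, 19.8, 19.6, 21.7, 24.8 and 17.9 CPM in KO fasted livers, against 11.9, 16.3, 12, 15.7, 17.1 and 14.8 CPM in KO fed livers. Its log2 fold change was 0.47 ± 0.14 in knockout livers (edgeR quasi-likelihood, Benjamini-Hochberg adjusted p = 0.040) and 0.41 ± 0.16 in control livers, not called. The Pex3 call in knockouts was lost without any of KO fed replicates 1, 3, 4 and 6, at adjusted p values of 0.106, 0.0934, 0.053 and 0.0629 in that edgeR test, and without KO fasted replicates 2, 3, 4 and 5, at 0.057, 0.0555, 0.0768 and 0.107.

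None of the 8 peroxins of matrix import was called by edgeR or DESeq2 in either genotype; at an unadjusted p under 0.05 edgeR counted 0 in knockout and 1 in control livers, Pex10. Pex5 and Pex7 are the receptors that carry enzymes with their targeting signals to the membrane. Pex5 had log2 fold changes of 0.16 ± 0.09 in knockout and 0.07 ± 0.10 in control livers, and Pex7 of -0.15 ± 0.11 in knockout and -0.24 ± 0.13 in control livers. The docking proteins Pex13 and Pex14 had 0.03 ± 0.17 and 0.14 ± 0.14 in knockout livers and 0.29 ± 0.18 and 0.11 ± 0.15 in control livers. Pex2, a ubiquitin ligase subunit that recycles the receptor, had -0.24 ± 0.13 in knockout and -0.19 ± 0.14 in control livers. Pex26, the anchor of the receptor-extracting ATPase, had 0.36 ± 0.18 in knockout and 0.15 ± 0.19 in control livers.

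Pex6, an ATPase that pulls the receptor out of the membrane, had 114, 84.7, 99.9, 95.5, 81.4 and 101 CPM in KO fasted livers and 103, 137, 115, 111, 84.1 and 105 CPM in KO fed livers. Among controls, fasted livers had 112, 129, 124, 75 and 127 CPM and control fed livers 117, 137, 117, 101 and 108 CPM. The groups overlapped throughout, with log2 fold changes of -0.19 ± 0.12 in knockout and -0.03 ± 0.14 in control livers. Pex10, the partner of Pex2 in the ligase, was at a low level, with 5.17, 4.28, 5.44, 6.27, 5.66 and 9.81 CPM in KO fasted livers and 6.34, 6.81, 5.64, 3.71, 5.16 and 2.48 CPM in KO fed livers. The control fasted libraries had 4.41, 4.22, 5.29, 4.09 and 4.89 CPM and control fed livers 6.92, 5.46, 6.93, 10.5 and 5.74 CPM. Control fasted libraries lay below control fed ones, and knockout libraries overlapped; the log2 fold changes were 0.28 ± 0.25 in knockout and -0.64 ± 0.27 in control livers, and neither passed.

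Catalase was the most abundant of the 34 genes per kilobase, at 1130 ± 75.4 RPKM in control fasted livers and 1200 ± 66.1 RPKM in control fed livers (SD, n = 5 each). Cat had 2810, 2600, 3270, 2030, 2830 and 2900 CPM in KO fasted livers and 3100, 3220, 2930, 3280, 3320 and 3140 CPM in KO fed livers. Fasted control livers had 3120, 2950, 3090, 2630 and 3020 CPM and control fed livers 3270, 3230, 3110, 2830 and 3170 CPM. The groups overlapped, although KO fasted replicate 4 lay below every other library. Its log2 fold change was -0.21 ± 0.10 in knockout and -0.08 ± 0.11 in control livers. Neither passed, with an unadjusted p of 0.041 in knockout livers (edgeR quasi-likelihood). Mlycd, the decarboxylase that degrades malonyl-CoA, an inhibitor of fatty acid entry into mitochondria, had log2 fold changes of 0.28 ± 0.11 in knockout and 0.30 ± 0.13 in control livers, also below the threshold. The levels of 12 genes in each library show the rise of several oxidation enzymes beside catalase, which was not called.

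**Figure D2:**
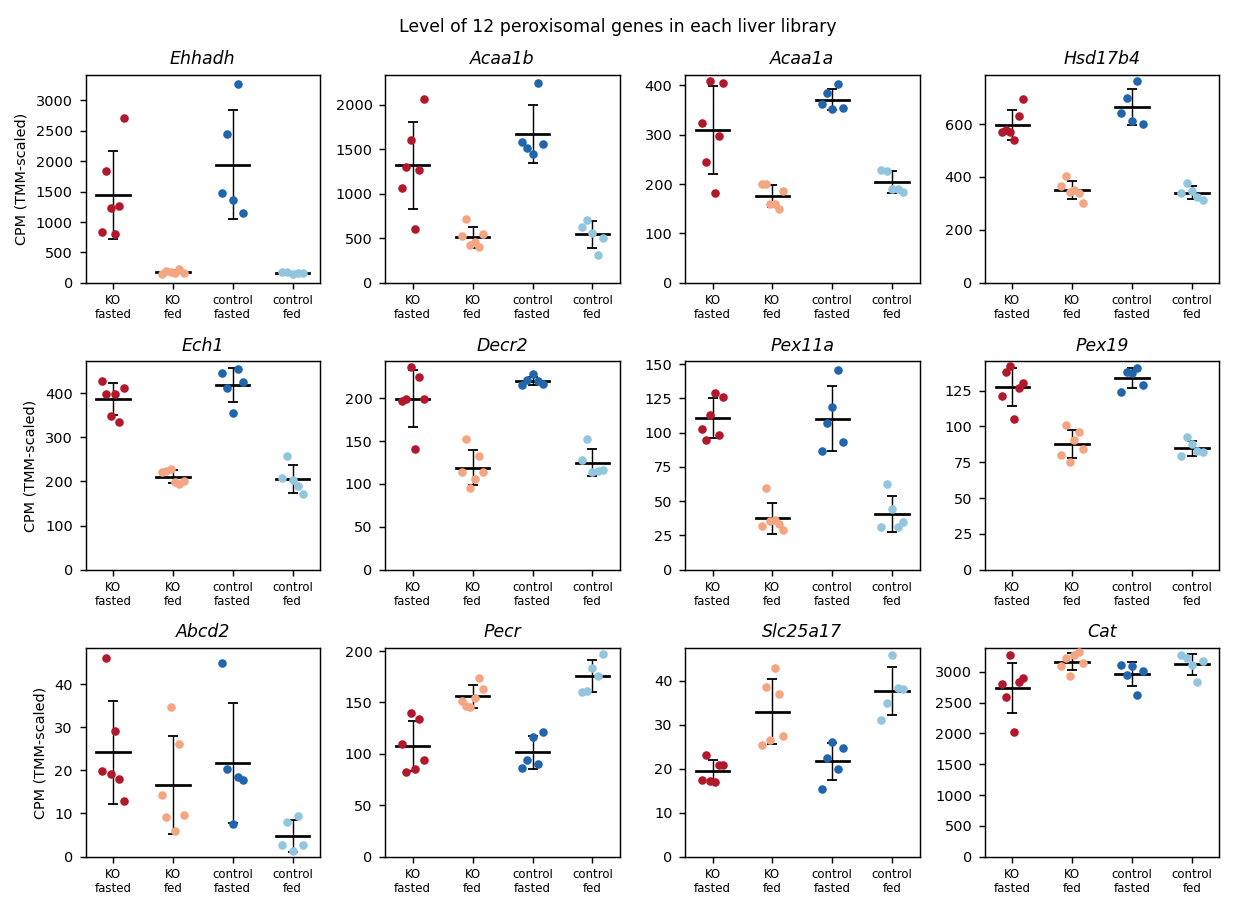
Each point is the TMM-scaled CPM of a gene (vertical axis) in a liver library, in KO fasted, KO fed, control fasted and control fed livers from left to right; bars give the mean and SD. Ehhadh, Hsd17b4, Ech1, Pex11a and Pex19 show fasted libraries above all fed ones in both genotypes, Pecr and Slc25a17 show them below, and Cat averages between 2740 and 3160 CPM in every group.

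Summed over the 34 genes, the length-scaled level was 5050 ± 685 RPKM in KO fasted livers (SD, n = 6) and 5550 ± 412 RPKM in control fasted livers (SD, n = 5), against 3980 ± 201 RPKM in KO fed livers (SD, n = 6) and 4040 ± 239 RPKM in control fed livers (SD, n = 5). Most of that difference lay in the 8 cycle enzymes, which summed to 2290 ± 517 RPKM in KO fasted and 2640 ± 508 RPKM in control fasted livers, against 1270 ± 109 RPKM in KO fed and 1310 ± 158 RPKM in control fed livers. The 8 matrix import peroxins summed to between 105 and 112 RPKM in all 4 groups.

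The promoters of Ehhadh, Acaa1b and Pex11a, which rose in both genotypes, and of catalase, which did not pass the test, are shown because PPARA with RXR is known to bind a direct repeat of AGGTCA spaced by a base. The windows hold the 250 bases before the RefSeq start site in GRCm38.p6, all on the minus strand and written 5′ to 3′ along the gene. Capitals mark the closest match to this repeat (AGGTCA, any base, AGGTCA) on either strand with up to 4 mismatches. The windows are chr16:21787835-21788084 for Ehhadh, chr9:119157094-119157343 for Acaa1b, chr7:79743132-79743381 for Pex11a and chr2:103485154-103485403 for Cat.
Ehhadh: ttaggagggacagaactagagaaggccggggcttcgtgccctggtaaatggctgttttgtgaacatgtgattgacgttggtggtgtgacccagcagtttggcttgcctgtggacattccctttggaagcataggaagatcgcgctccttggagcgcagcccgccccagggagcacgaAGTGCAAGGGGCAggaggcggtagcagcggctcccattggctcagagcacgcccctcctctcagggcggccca
Acaa1b: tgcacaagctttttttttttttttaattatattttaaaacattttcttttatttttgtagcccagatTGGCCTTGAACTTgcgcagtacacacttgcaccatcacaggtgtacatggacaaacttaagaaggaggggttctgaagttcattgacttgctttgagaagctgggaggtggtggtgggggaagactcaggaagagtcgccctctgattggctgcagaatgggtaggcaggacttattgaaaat
Pex11a: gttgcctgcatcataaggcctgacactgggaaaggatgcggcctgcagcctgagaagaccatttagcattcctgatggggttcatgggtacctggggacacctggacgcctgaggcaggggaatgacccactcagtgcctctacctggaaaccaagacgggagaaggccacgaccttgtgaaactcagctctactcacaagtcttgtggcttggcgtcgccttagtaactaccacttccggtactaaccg
Cat: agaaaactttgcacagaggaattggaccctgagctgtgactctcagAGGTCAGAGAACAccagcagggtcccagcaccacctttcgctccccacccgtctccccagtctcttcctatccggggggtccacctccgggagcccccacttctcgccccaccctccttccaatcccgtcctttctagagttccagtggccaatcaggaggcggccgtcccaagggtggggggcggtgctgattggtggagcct

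Of these 4 windows, the one of Cat had the closest match, with 2 mismatches, starting 204 bases before the start site. Ehhadh and Acaa1b had a match with 4 mismatches each, starting 73 and 183 bases before it, and Pex11a had none within 4. RefSeq windows were found for 27 of the 34 genes. A match within 3 mismatches stood in the window of 0 of the 10 genes that rose in control livers, of 0 of the 3 that fell and of 4 of the 14 that were not called, Acox2, Cat, Mlycd and Pex11g. Of all 27025 genes in the table, 23.7% held such a match. The AGGTCA hexamer alone on either strand, which any full match overlaps, was in 0 of 10, 0 of 3 and 3 of 14, against 15.8% of all genes. A match is a description of letters, and a window without one says nothing about binding elsewhere in the gene.

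The knockout was then set against the control in each feeding state, which asks whether loss of Gpt2 in liver shifted these genes. In fasted livers, KO against control, 0 of the 34 genes were called by edgeR, DESeq2 or limma voom, and 0 had an unadjusted p under 0.05 in edgeR. In fed livers 0 were called by any of these tools, and 2 had an unadjusted p under 0.05. In each of these comparisons and in the interaction, edgeR called 0.00597% of all genes, a single gene, which was lower (0% were higher). The median log2 fold change of the 34 genes was -0.05 in fasted livers, beside 0.01 over all genes, and -0.01 in fed livers, beside 0.00.

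The intervals, taken for each gene alone without adjustment, show how large a difference the data allow. In fasted livers the 95% interval of the difference lay within 1.5-fold in either direction for 30 of the 34 genes, and in fed livers for 29. The exceptions in both states were Abcd2, Acaa1b, Ehhadh and Pex10, joined by Pex26 in fed livers. For Ehhadh the interval of the KO over control ratio was 0.487 to 1.14 in fasted and 0.709 to 1.66 in fed livers. For Hsd17b4 it was 0.781 to 1.03 in fasted and 0.895 to 1.19 in fed livers, and for Pex11a 0.771 to 1.3 in fasted and 0.706 to 1.2 in fed livers.

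The genes with the smallest p in fasted livers were Pex6, Acaa1a and Pex10, with log2 differences of -0.24 ± 0.13, -0.26 ± 0.14 and 0.41 ± 0.26, and none passed. In fed livers they were Abcd2, Hacl1 and Acox3. Abcd2 had 5.89 to 34.8 CPM in KO fed livers (median 12), against 1.29 to 9.49 CPM in control fed livers (median 2.59). Its log2 difference of 1.80 ± 0.59 had an unadjusted p of 0.0068 and a Benjamini-Hochberg adjusted p of 0.36 in edgeR's quasi-likelihood test, and the ratio's interval ran from 1.48 to 8.23. The control fed libraries that enter this difference are also those that enter the fasting response of controls. Hacl1 had 0.32 ± 0.13 and Acox3 -0.24 ± 0.12, neither passing after adjustment. For Acox3 all KO fed libraries, at 24.1 to 29.4 CPM, lay below all control fed libraries, at 29.8 to 36.2 CPM; it was the only one of the 34 genes whose ranges were apart between genotypes in fed livers, where 1.18% of all genes were apart, and none were apart in fasted livers, where 0.489% were.

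**Figure D3:**
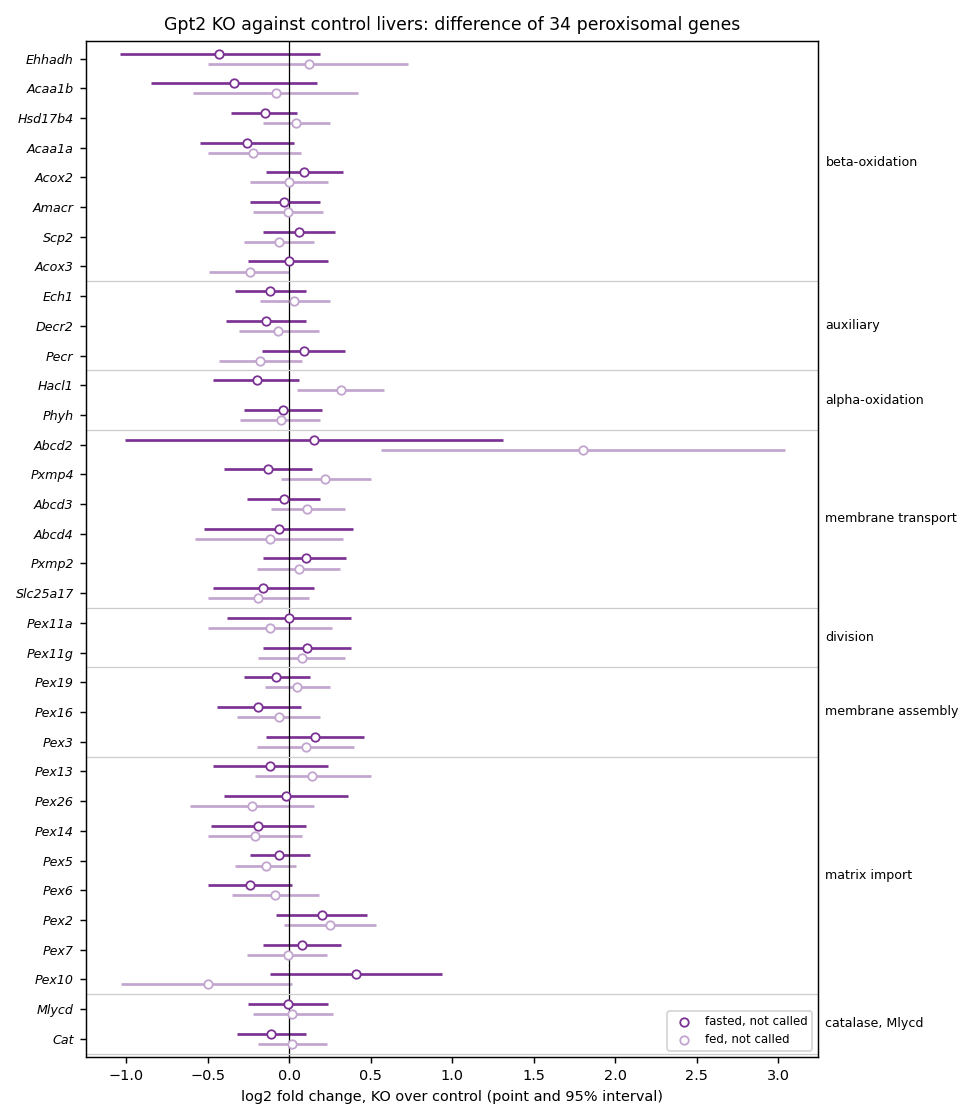
The log2 fold change of KO over control livers (horizontal axis) is plotted for the 34 genes with 95% intervals, in fasted livers in dark and in fed livers in light purple. All points are open because none passed an adjusted p of 0.05; Abcd2 in fed livers stands farthest from 0, at 1.80.

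The fasting responses of knockout and control livers, which share no library, were close to each other across the 34 genes. The direction was the same for 32 of 34. With its sign kept, the log2 fold change was higher in knockout than in control livers for 16, which includes genes that fell less in knockouts, such as Pecr. Across the genes the fold changes had a Pearson r of 0.91 and a Spearman rho of 0.89, and the genes are not independent replicates. Calls in both genotypes numbered 12, all in the same direction: Ehhadh, Acaa1b, Acaa1a, Hsd17b4, Ech1, Decr2, Abcd3, Pex11a, Pex19 and Pex16 rose, and Pecr and Slc25a17 fell. Abcd2, Pxmp4, Hacl1 and Acox3 were called in controls alone, and Pex3 in knockouts alone. None of these 5 differed between genotypes by the test of the difference itself: edgeR called 0 of 34 interactions, as did DESeq2 and limma voom, with 2 at an unadjusted p under 0.05, Hacl1 and Pex10. The Pex10 interaction was 0.91 ± 0.37 on the log2 scale with an unadjusted p of 0.018, and that of Abcd2 was -1.65 ± 0.80 with an unadjusted p of 0.053; neither passed after adjustment. The 95% interval of the interaction stayed within 1.5-fold for 22 of the 34 genes and reached past that for the other 12. Those of Hacl1 and Pex10, both among the 12, left out no change before adjustment, at ratios of 0.537 to 0.905 and 1.12 to 3.16.

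Libraries also differed within a group. The coefficient of variation of the 34 genes had a median of 15.2% in KO fasted livers, 11.3% in control fasted livers, 13.2% in KO fed livers and 13.7% in control fed livers. The widest was Ehhadh in KO fasted livers, at 50.1%, and Abcd2 in the others, at 63.6%, 68.3% and 77.0%. KO fasted replicate 4 had the lowest level of its group for Ehhadh, Acaa1b, Acaa1a, Decr2, Hsd17b4, Amacr, Cat, Phyh, Pex7, Pex19 and Slc25a17. It had the highest for the oxidases Acox2 and Acox3 and for Pex11a, Pex11g and Pxmp4. KO fasted replicate 6 had the highest Ehhadh, Acaa1b and Hsd17b4.

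Other peroxisomal and related genes were read from lists, tested in the same fit. Of 17 genes of acyl-CoA handling in peroxisomes, 10 were higher and 1 lower with fasting in each genotype, with median log2 fold changes of 0.99 in knockout and 0.89 in control livers. Acsl1, which activates fatty acids, rose by 1.15 ± 0.10 in knockout and 1.55 ± 0.12 in control livers, and Slc27a2, which activates and takes up very long chains, by 1.10 ± 0.12 in knockout and 1.20 ± 0.13 in control livers. Crat, the acyltransferase that passes acetyl groups to carnitine, rose by 2.04 ± 0.20 in knockout and 2.56 ± 0.23 in control livers, and the thioesterase Acot4 by 1.28 ± 0.18 in knockout and 2.33 ± 0.21 in control livers. Nudt7, which degrades CoA in peroxisomes, fell by 2.18 ± 0.31 in knockout and 2.87 ± 0.35 in control livers on the log2 scale.

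Of 14 oxidases and amino acid or glyoxylate enzymes of peroxisomes tested, 2 were higher, 6 were lower and 6 were not called in each genotype, with medians of -0.19 in knockout and -0.33 in control livers. Ephx2, an epoxide hydrolase, rose by 1.06 ± 0.11 in knockout and 1.07 ± 0.12 in control livers, and Dhrs4, a carbonyl reductase, by 0.47 ± 0.10 in knockout and 0.64 ± 0.11 in control livers. Paox, a polyamine oxidase, fell by 1.88 ± 0.21 in knockout and 1.61 ± 0.22 in control livers. In control livers Idh1, Xdh and Mpv17l fell by 0.55 ± 0.11, 0.62 ± 0.13 and 0.94 ± 0.21.

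None of 4 genes of ether lipid synthesis and none of 15 further genes of peroxisome division, proteolysis and assembly were called by edgeR in either genotype; at an unadjusted p under 0.05, 0 and 2 stood out in knockout and 0 and 4 in control livers. Among 18 regulators, Ppara rose by 0.67 ± 0.14 in knockout and 0.76 ± 0.15 in control livers, and Fgf21, a hormone gene downstream of PPARA, by 4.12 ± 0.90 in knockout and 6.67 ± 1.21 in control livers. In knockouts Hnf4a, a liver transcription factor, was also higher, by 0.48 ± 0.11, and no other regulator was called in either genotype. Of 22 PPARA targets outside peroxisomes, 18 were higher in knockout and 19 in control livers and 0 were lower, with medians of 1.12 in knockout and 1.35 in control livers. They include Cpt1a, which lets fatty acids into mitochondria, at 1.33 ± 0.13 in knockout and 1.70 ± 0.14 in control livers, and Slc25a20, which carries acylcarnitines across the inner membrane, at 1.12 ± 0.10 in knockout and 1.31 ± 0.11 in control livers. None of these list genes was called between genotypes or in the interaction.

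**Figure D4:**
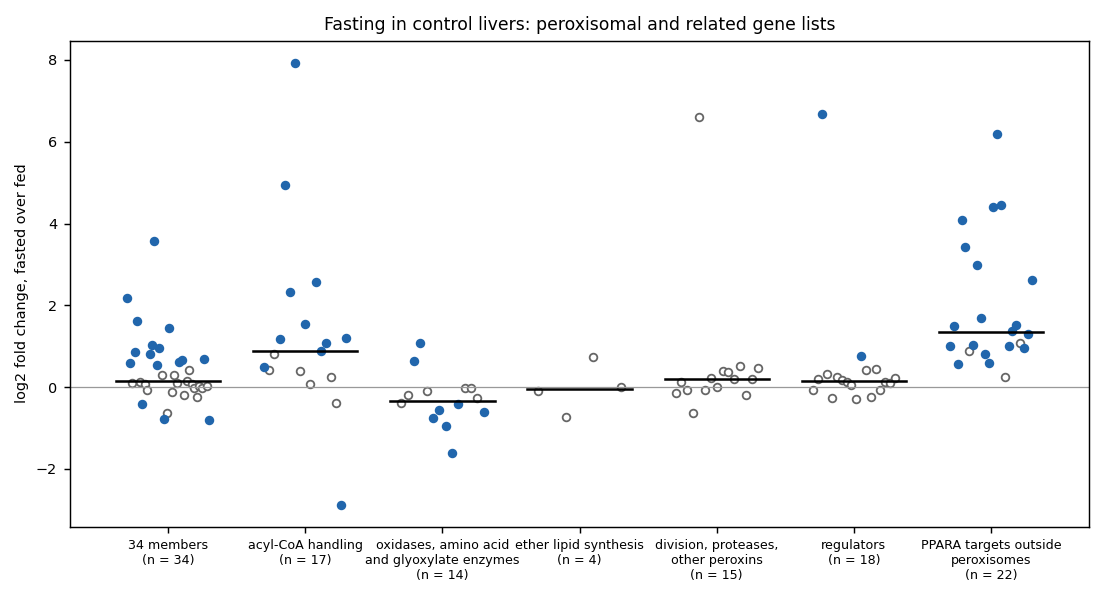
Each point is the log2 fold change of fasted over fed control livers (vertical axis) for a gene, by list, with the 34 genes on the left; filled points passed an adjusted p of 0.05, open points did not, and lines mark medians. The medians are 0.14 for the 34 genes, 0.89 for acyl-CoA handling, -0.33 for oxidases and amino acid enzymes and 1.35 for PPARA targets outside peroxisomes.

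Markers of other cell types were read beside these results, since in whole liver fewer cells of a type and less RNA per cell cannot be told apart. With fasting, 1 of 6 endothelial markers was higher in each genotype, Lyve1; the list summed to 138 to 212 CPM in KO fasted and 118 to 158 CPM in control fasted livers, against 139 to 203 CPM in KO fed and 93.5 to 145 CPM in control fed livers. Of 6 stellate cell markers, 1 was lower in knockout and 2 in control livers, Col3a1 in both; the sums were 167 to 240 and 120 to 217 CPM in KO and control fasted livers, against 211 to 275 and 184 to 248 CPM in KO and control fed livers. Of 5 exocrine pancreas markers only Cela1 was high enough to test, and it was lower with fasting; the list summed to 5.58 to 8.29 and 3.43 to 8.48 CPM in KO and control fasted livers, against 11.7 to 29.8 and 24.5 to 37.7 CPM in KO and control fed livers, with Amy2a1 and Pnlip at 0 in all 22 libraries. Of 3 red cell markers, Alas2 was called lower with fasting in each genotype. In knockout livers 2 of the 3 had positive log2 fold changes, and all 3 had an unadjusted p under 0.05 in edgeR. The median there was 0.59. In control livers 0 were positive, and 1 had an unadjusted p under 0.05. The red cell list summed to 261 to 478 and 216 to 423 CPM in KO and control fasted livers, against 192 to 341 and 231 to 454 CPM in KO and control fed livers. Of 5 cholangiocyte markers, Spp1 was lower in control livers and none was called by edgeR in knockout livers, where 2 had an unadjusted p under 0.05; the sums were 21.9 to 35.2 and 17.7 to 34.3 CPM in KO and control fasted livers, against 25.2 to 36.8 and 26.7 to 60.1 CPM in KO and control fed livers. Of 9 hepatocyte markers, Apoa1 and Apob were higher and Fgb was lower in control livers, and none was called by edgeR in knockout livers, where 1 had an unadjusted p under 0.05. None of the 7 kidney, 5 lymphocyte and 1 adipocyte markers tested was called by edgeR with fasting, and at an unadjusted p under 0.05 there were 2 kidney markers in control livers and 0 otherwise.

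None of 7 Kupffer cell markers was called by edgeR in any comparison. With fasting, 1 had an unadjusted p under 0.05 in each genotype. In fasted livers, KO against control, all 7 had positive log2 fold changes, with a median of 0.70, and 6 had an unadjusted p under 0.05; the smallest Benjamini-Hochberg adjusted p of edgeR was 0.564. The Kupffer list summed to 98.1 to 217 CPM in KO fasted livers and 94.5 to 120 CPM in control fasted livers, and to 130 to 199 CPM in KO fed livers and 108 to 162 CPM in control fed livers. The 6 endothelial markers also all had positive log2 fold changes for KO against control in each feeding state, and none was called. In fed livers their median was 0.59, 4 had an unadjusted p under 0.05, and the smallest Benjamini-Hochberg adjusted p of edgeR was 0.0511. For fasted livers the median was 0.42, 3 had an unadjusted p under 0.05, and the smallest adjusted p of edgeR was 0.462. The part of these shifts in the fasting response and in the genotype comparison was not tested.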

How the data were processed

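Polyadenylated RNA of mouse liver, selected with oligo-dT per the labels' protocols, was sequenced in 24 libraries, of which 22 were used. Per the submitters' processing notes the reads were handled with bcl2fastq, STAR (2.5.1a), Subread and featureCounts (1.4.6-p5) on GRCm38; the annotation and the strand setting were not given in the sources used. The deposited values are whole-number counts per gene, which entered every test. Per the file headers the deposited CPM values are each count per 1000000 assigned reads and the deposited RPKM values are CPM per kilobase; both were recomputed from the counts as a check. Symbols came from a reference table of gene IDs and names, matched by Ensembl ID, which named 40254 of 41388 genes; the thiolase coding sequences and exon overlaps were read from GENCODE M21.

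The tests used edgeR (4.0.16, R 4.3.3) with TMM factors, filterByExpr (minimum count 10, minimum total 15), robust glmQLFit over 4 groups without covariates, glmQLFTest, and Benjamini-Hochberg adjustment over 16757 genes, with calls at an adjusted p under 0.05. The standard error is the log2 fold change over sqrt(F). All levels are CPM after TMM scaling; RPKM on the same scaling served only to compare genes. Scripts were tested on simulated data. Libraries of a group were compared for duplicates, and none was found: over 50 pairs the chi-square per degree of freedom was 37.4 to 323. The libraries left out are the incomplete file and the kidney-like library. The alternatives were DESeq2 1.42.0, limma 3.58.1, other scaling and filters, and leaving out each library. Values of the kidney-like library come from a scaling over 23 libraries. Promoters are RefSeq windows of GRCm38.p6.

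The 34 genes, the gene lists and the tests were chosen with earlier results of these data known. Library values are given for the 6 highest and up to 4 lowest called changes with fasting in controls (3 were called lower), the 3 nearest to no change, the thiolase pair, and the 3 smallest p values of each genotype comparison and of the interaction; of the other lists, up to 6 called genes with the smallest p may be named. Cat, Pex3 and the genes picked for their promoters were singled out after their values were seen.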

Additional observations from a re-analysis of the deposited data

Results flagged for a closer look

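In 9 of 136 groups of 5 or 6 libraries, a library stood far from the rest of its group; chance gives about 1 in 20. The high values were Acaa1b at 2240 CPM in control fasted replicate 5, Phyh at 1740 CPM in KO fed replicate 5, Pex10 at 9.81 CPM in KO fasted replicate 6 and at 10.5 CPM in control fed replicate 4, Pex11a at 59.4 CPM in KO fed replicate 2, Pex26 at 34.5 CPM in KO fed replicate 1 and Pxmp4 at 164 CPM in KO fasted replicate 4. The low values were Abcd3 at 494 CPM in KO fasted replicate 1 and Pex2 at 20.8 CPM in KO fed replicate 3. Pex10 had such a library in 2 of its 4 groups, and both libraries enter its interaction.

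The library labelled control fasted replicate 4, left out of every comparison except where it is said to be put back, held 166 CPM of Acox3, the pristanoyl-CoA oxidase, 4.5 times the highest of the 22 other libraries at 36.8 CPM. Of the 34 genes, Acox3, Abcd4 and Slc25a17 lay above all 22 libraries there, 23 lay below all of them and 8 lay within their range. Abcd2 had 0.242 CPM, Scp2 260 CPM and Phyh 235 CPM in that library, against lowest values of 1.33, 2080 and 1150 CPM in the others.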

How the results depend on the processing

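Over 32 alternatives (10 settings and 22 left-out libraries), 7 of the 13 calls for fasting in knockout livers (Acaa1a, Acaa1b, Ech1, Ehhadh, Hsd17b4, Pecr and Pex11a) and 7 of the 16 in control livers (Acaa1b, Ech1, Ehhadh, Hsd17b4, Pecr, Pex11a and Pxmp4) were kept under every one. With the kidney-like library put back, the calls among the 34 genes were 6 higher and 1 lower in knockout and 6 higher and 1 lower in control livers, 2.22% and 4.72% of all genes were called (379 and 805, against 1029 and 1360), and Acox3 in controls reversed to 0.56 ± 0.41. The cause of these changes was not tested. In knockouts, which gained no library, log2 fold changes of the lost calls were nearly as before, with larger SEs. Those of Decr2, Abcd3 and Pex3 were 0.75 ± 0.21, 0.45 ± 0.16 and 0.47 ± 0.15, against 0.74 ± 0.12, 0.45 ± 0.11 and 0.47 ± 0.14. Those of Pex16, Pex19 and Slc25a17 were 0.49 ± 0.23, 0.53 ± 0.16 and -0.76 ± 0.23, against 0.49 ± 0.12, 0.53 ± 0.10 and -0.76 ± 0.15. With that library put back, the exact permutation p of Gpt2 between genotypes in fasted livers was 0.0195. Scaling to library totals moved none of 136 group levels by more than 1 SD. Leaving out a library in turn gave 10 to 11 higher and 2 to 2 lower in knockout and 12 to 13 higher and 2 to 3 lower in control livers, and 0 to 0 in the genotype comparisons and the interaction. Other losses were confined to Acox3 and Abcd2 in controls and Pex3 in knockouts: scaling to library totals (adjusted p of 0.0536 for Acox3 and 0.146 for Pex3), no filter on low counts (0.103 and 0.0897), and fitting only the groups compared (0.0704 for Acox3 and 0.0899 for Abcd2), all with edgeR, and, for Abcd2, limma voom with sample weights (0.106). Scaling to library totals moved the share of calls that were higher in fasted knockout livers over all genes to 36.7%, against 46.9%, and no scaling moved the median of all genes by more than 0.1. DESeq2 called 3, 68 and 6 of all genes for KO against control in fasted livers, in fed livers and in the interaction, and without the filter edgeR called 14 in fed livers, against 1. No paired analysis was possible because the labels give no replicate numbers shared between groups; with 10 clusters of neighbouring title numbers as a random block in limma voom (correlation -0.013), only the Abcd2 call was lost (adjusted p = 0.0623). With 5 or 6 libraries in a group, genotype differences could be missed. The intervals given are for each gene alone, without adjustment, and are not a detection limit of the adjusted test.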
